A study of Homo sapiens with 3 samples.

Results

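The genes described here are 6 genes of antigen presentation and interferon signalling: B2M, HLA-B, HLA-C, HLA-E, HLA-G and IRF1. They were found by gene symbol in both deposited all-gene tables, where they make up 6 of 57773 rows. They were chosen by their reads in these same libraries, above all by their low values with the LINC00273 label against the control, so those values are descriptions and not tests. RNA was measured in 3 libraries of tumorspheres of MDA-MB-231, an established human breast cancer cell line with a mesenchymal phenotype. Tumorspheres are clusters of cells grown without attachment, in ultra low adhesion plates. Wild-type spheres transfected with a LINC00273-pcDNA-CMV clone gave the first library, which carries the label LINC00273 overexpression. LINC00273 is a long non-coding RNA, and the CMV promoter of the plasmid is a viral promoter active in many cell types. Wild-type spheres treated with 10 µM M2, which is a code name with no structure attached here, gave the second library, and untreated wild-type spheres gave the control library. All 3 carry a time label of 24 h. Each group is 1 library, so no difference has a replicate check and no test was made. No empty-vector or vehicle library was analysed here.

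MHC class I molecules carry peptides from inside the cell to its surface, where CD8+ T cells read them. Each molecule is a heavy chain paired with the light chain beta-2-microglobulin, the product of B2M. HLA-B and HLA-C are classical, highly variable heavy chains. HLA-E and HLA-G are nonclassical heavy chains with little variation: HLA-E is read by CD94/NKG2 receptors of natural killer (NK) cells, and HLA-G is best known from the placental trophoblast, where it engages inhibitory receptors. IRF1 is a transcription factor that interferon-gamma induces and that activates class I genes through interferon response elements. Most class I promoters combine such an element with a kB site, an S-X-Y module and a CCAAT box.

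The promoter sequences of 5 of the 6 genes are shown because they carry the elements by which this family is known to be controlled. Each sequence is the 250 bases upstream of the transcription start, 5′ to 3′ on the strand of the gene, from RefSeq on GRCh38.p14. Capitals mark every match, on either strand, to the kB motif, to the interferon gamma activation site TTCNNNGAA, to the repeat GAAANNGAAA of IRF sites, to the class I interferon element letters GTTTCACTT or to CCAAT, which reads ATTGG on the opposite strand. The HLA-G window is that of the third of 3 annotated starts, the one that holds matches. HLA-E is named only.
B2M, chr15:44711267-44711516, plus strand: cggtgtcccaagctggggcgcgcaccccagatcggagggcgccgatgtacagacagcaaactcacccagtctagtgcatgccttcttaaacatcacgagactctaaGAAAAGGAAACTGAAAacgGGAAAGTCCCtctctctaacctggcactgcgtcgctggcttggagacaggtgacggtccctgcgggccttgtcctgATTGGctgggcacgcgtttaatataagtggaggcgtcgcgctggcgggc
HLA-B, chr6:31357180-31357429, minus strand: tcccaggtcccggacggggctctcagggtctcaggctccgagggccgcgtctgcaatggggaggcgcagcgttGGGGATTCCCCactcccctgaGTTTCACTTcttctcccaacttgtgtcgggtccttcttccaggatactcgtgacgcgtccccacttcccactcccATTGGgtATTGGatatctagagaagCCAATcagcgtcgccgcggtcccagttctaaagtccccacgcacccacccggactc
HLA-C, chr6:31272093-31272342, minus strand: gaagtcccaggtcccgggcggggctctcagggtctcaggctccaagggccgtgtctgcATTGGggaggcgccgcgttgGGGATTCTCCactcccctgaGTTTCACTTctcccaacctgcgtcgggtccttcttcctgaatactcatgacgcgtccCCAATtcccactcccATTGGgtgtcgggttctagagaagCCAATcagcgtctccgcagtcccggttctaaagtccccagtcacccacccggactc
HLA-G, chr6:29827575-29827824, plus strand: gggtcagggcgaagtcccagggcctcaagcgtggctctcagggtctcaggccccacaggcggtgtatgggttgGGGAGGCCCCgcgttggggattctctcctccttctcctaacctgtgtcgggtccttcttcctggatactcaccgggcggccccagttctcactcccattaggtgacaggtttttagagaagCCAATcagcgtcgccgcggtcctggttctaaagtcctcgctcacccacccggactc
IRF1, chr5:132490774-132491023, minus strand: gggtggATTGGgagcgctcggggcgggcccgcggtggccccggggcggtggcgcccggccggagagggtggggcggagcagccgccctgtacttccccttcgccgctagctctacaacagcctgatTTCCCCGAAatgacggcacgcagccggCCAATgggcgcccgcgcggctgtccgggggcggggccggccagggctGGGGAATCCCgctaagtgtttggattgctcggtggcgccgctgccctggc

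HLA-B and HLA-C share the letters GTTTCACTT, at -156 to -148 from the start in HLA-B and at -152 to -144 in HLA-C. These letters stood in 0.268% of the 35116 promoter windows of the same length. The HLA-G window did not hold them. B2M held 2 overlapping matches to GAAANNGAAA, at -144 to -135 and at -138 to -129, a motif in 3.02% of all windows. IRF1 held TTCNNNGAA at -124 to -116, a motif in 6.57% of all windows. All 5 windows held a kB match, as did 9.96% of all windows, and the 2 matches in HLA-B overlap each other. All 5 also held CCAAT on 1 strand or both, as did 32.0% of all windows. The HLA-G window was chosen because it holds matches, so only the other windows can be set against these shares. A match says only that these letters are there.

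The libraries held 5123199 reads on genes with the LINC00273 label, 4695535 with M2 and 8620534 in the control, of which the small RNAs RN7SL1 and RN7SK took 42.8%, 39.3% and 54.7%. LINC00273 had 0 reads in all 3 libraries, which allows a share of up to 1.17 in 1000000 reads with the LINC00273 label, 1.28 with M2 and 0.696 in the control, so its own label could not be checked. The mesenchymal marker VIM had 8910, 4182 and 11763 reads in the same order, and the epithelial EPCAM and CDH1 had at most 11 reads in any library. FN1, which encodes fibronectin, had 620, 170 and 266 reads, and the receptor kinase gene AXL had 87, 32 and 151. The hemoglobin genes HBB, HBA1 and HBA2, which define red cells and not this line, had 9, 2 and 0 reads with the LINC00273 label, 5417, 175 and 944 with M2 and 4860, 168 and 788 in the control. In this respect the library with the LINC00273 label stood apart from the other libraries.

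All 6 genes were sparsely read: in the control they had between 25 and 135 reads, where 2 reads make 1 sequenced fragment. Reads were scaled by effective library sizes (TMM) to CPM, the reads of a gene per 1000000 reads, and 95% exact intervals were computed on whole fragments. The intervals cover counting error only, since each group is 1 library. Amplified reads that carry no molecular identifiers may stem from the same molecule, so the intervals may be too narrow. In bulk RNA of this kind, fewer cells that express a gene and less of its RNA per cell cannot be told apart. The class I genes are near-identical in parts of their sequence, and how reads that map to several genes were counted is not given in the sources used here, so the split of reads between HLA genes is uncertain.

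B2M, the light chain that every classical and nonclassical heavy chain pairs with, lies at chr15:44711487-44718877 on the plus strand (GENCODE 29, GRCh38). It had 0 reads with the LINC00273 label, 59 with M2 and 119 in the control. On the scaled level these were 0 (up to 1.20), 12.6 (8.64 to 18.3) and 16.5 (12.7 to 21.4) CPM. The library with the LINC00273 label was thus empty for a gene that the other libraries read, and the interval of its level does not meet theirs. Set against a floor of 3 fragments per library, B2M was at least 16.9-fold lower with the LINC00273 label than in the control at its measured level. With the counting error of both libraries the interval of the log2 ratio reaches -3.75, short of the -4.08 at that floor, and by total reads the log2 ratio at the floor was -3.56. With M2 the log2 ratio to the control was -0.39 (interval -1.06 to 0.28), which includes no difference.

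HLA-B, a classical heavy chain annotated at chr6:31269491-31357188 on the minus strand, had 2 reads with the LINC00273 label, 47 with M2 and 41 in the control. Its scaled levels were 0.326 (0.00825 to 1.82), 10.03 (6.56 to 15.2) and 5.69 (3.61 to 8.91) CPM. The level with the LINC00273 label rests on 1 fragment, and the other libraries overlapped in their intervals. The log2 ratio to the control was -4.13 (interval -9.53 to -1.52) with the LINC00273 label, a 17.5-fold lower level. With M2 it was 0.82 (interval -0.09 to 1.73), the highest ratio to the control among the 6 genes. This M2 ratio was 1.07 by total reads and 1.42 against genes of like GC content.

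HLA-C, the other classical heavy chain here, at chr6:31268749-31272130 on the minus strand, had 6 reads with the LINC00273 label, 33 with M2 and 55 in the control. That is 0.977 (0.202 to 2.86), 7.04 (4.23 to 11.6) and 7.63 (5.16 to 11.2) CPM. The library with the LINC00273 label was low, while M2 and control were close. The log2 ratio was -2.96 (interval -5.35 to -1.30) with the LINC00273 label, or 7.81-fold lower, and -0.12 (interval -1.06 to 0.82) with M2, a sign that turned to 0.14 when scaled by total reads and to 0.62 when centred on genes of like GC content. In the annotation used for coordinates the HLA-B gene overlaps HLA-C on the same strand and also spans the pseudogene RPL3P2 on the opposite strand, which had 86, 54 and 166 reads in the same order of libraries. The strand setting of the counting is not given in the sources used here.

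HLA-E, the nonclassical chain that shows leader peptides of other class I chains to NK cells, lies at chr6:30489467-30494205 on the plus strand. It had 5 reads with the LINC00273 label, 44 with M2 and 53 in the control, at scaled levels of 0.814 (0.202 to 2.86), 9.39 (5.88 to 14.2) and 7.35 (4.94 to 10.9) CPM. As for HLA-C, the library with the LINC00273 label was low and the other libraries overlapped. The log2 ratio to the control was -3.17 (interval -5.30 to -1.24) with the LINC00273 label, 9.03-fold lower, and 0.35 (interval -0.56 to 1.19) with M2.

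HLA-G, at chr6:29826967-29831125 on the plus strand, had another order. It had 12 reads with the LINC00273 label, 0 with M2 and 25 in the control, at 1.95 (0.717 to 4.25), 0 (up to 1.57) and 3.47 (1.92 to 6.17) CPM. Here the M2 library was the empty one, and the intervals of the library with the LINC00273 label and the control overlapped. The log2 ratio was -0.83 (interval -2.57 to 0.61) with the LINC00273 label, and at a floor of 3 fragments M2 was at least 2.71-fold lower than the control at its measured level. With the counting error of both libraries the interval of that log2 ratio reaches -0.99, just inside 2-fold. HLA-G was the least read of the 6 genes in the control.

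IRF1, the transcription factor, lies at chr5:132481609-132490798 on the minus strand. It had 28 reads with the LINC00273 label, 42 with M2 and 135 in the control, at 4.56 (2.49 to 7.65), 8.96 (5.55 to 13.7) and 18.7 (14.7 to 23.9) CPM. Both other libraries lay below the control, and neither interval meets that of the control. The log2 ratio was -2.04 (interval -2.99 to -1.20) with the LINC00273 label, or 4.11-fold lower, and -1.06 (interval -1.85 to -0.35) with M2, or 2.09-fold lower. With the LINC00273 label the ratio was -1.52 by total reads and -1.45 against genes of like GC content. The M2 ratio lay at the edge of 2-fold: it was -0.99 under the deposited scaling, -0.81 by total reads and -0.65 against genes of like GC content. The antisense transcript C5orf56, which overlaps IRF1 in the annotation, had 2, 8 and 0 reads in the same order of libraries.

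**Figure D1:**
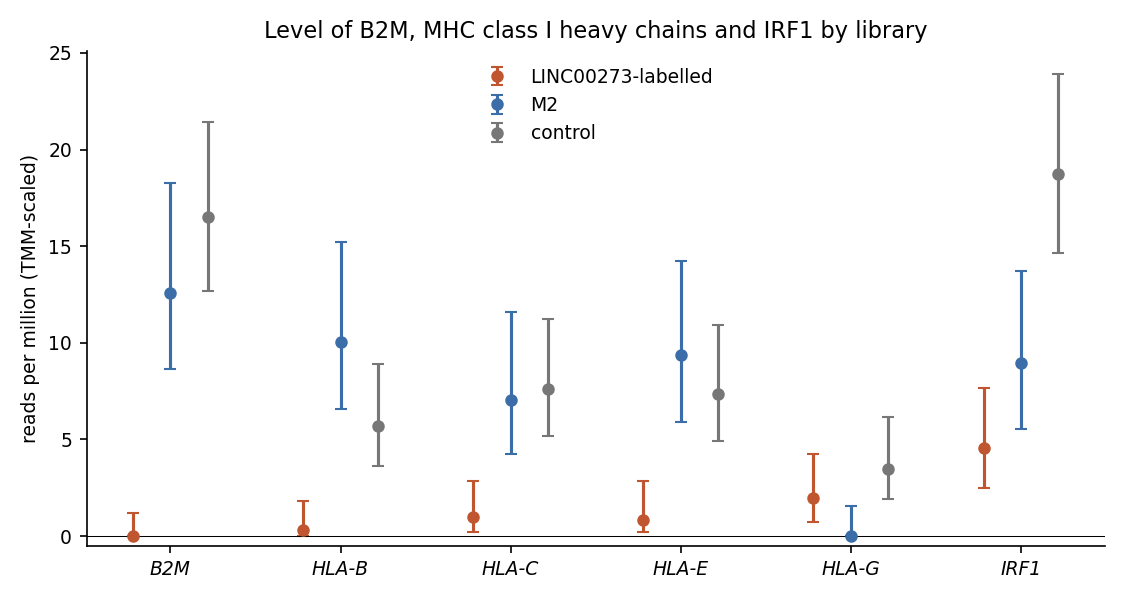
CPM of the 6 genes in the library labelled LINC00273 overexpression, the M2 library and the control library, with exact Poisson intervals as bars. IRF1 stands at 4.56, 8.96 and 18.7 CPM, and B2M stands at 0, 12.6 and 16.5.

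Levels can be compared between genes only per length of transcript, and the length used here is that of merged exons. These unite all annotated transcripts of a gene: 6079 bases for B2M, 7799 for IRF1 and 3051 for HLA-B, whose annotation overlaps HLA-C. They can be longer than the transcripts present in the cells, so the order between genes depends on the annotation. Per kilobase of merged exons in the control, the order of the levels was HLA-C at 3.04, B2M at 2.72, HLA-E at 2.47, IRF1 at 2.40, HLA-G at 1.97 and HLA-B at 1.86 CPM, and the intervals of neighbours overlapped throughout. With M2 the order of the levels per kilobase was HLA-B at 3.29, HLA-E at 3.16, HLA-C at 2.81, B2M at 2.07, IRF1 at 1.15 and HLA-G at 0. HLA-B was thus last in the control and first with M2, with overlapping intervals at both places. With the LINC00273 label HLA-G led at 1.11, followed by IRF1 at 0.585, HLA-C at 0.390, HLA-E at 0.274, HLA-B at 0.107 and B2M at 0.

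A gene was counted as lower or higher at a difference of at least 2-fold, provided that 1 of the libraries or both held 100 of its reads or more. Only B2M and IRF1 had 100 reads. Both were lower with the LINC00273 label, where 6.61% of the 3842 genes with that many reads were lower, 5.18% were higher and the median log2 ratio over them was -0.21. IRF1 alone of these was lower with M2, where 8.88% of 3805 genes were lower, 17.4% were higher and the median was -0.02. The split over all genes depends on the scaling: by total reads 37 genes were lower and 823 higher with the LINC00273 label, against 254 and 199 with TMM, and 166 were lower and 969 higher with M2, against 338 and 661. Under the deposited scaling 187 were lower and 265 higher with the LINC00273 label, and centred on GC content 243 were lower and 174 higher with M2. With a minimum of 20 reads, 5 of the 6 genes were lower with the LINC00273 label, all but HLA-G, against 9.69% of 7289 genes lower and 8.34% higher. With M2, 2 of the 6, IRF1 and HLA-G, were lower at that minimum, against 16.5% of 6969 genes lower and 13.9% higher. The genes were chosen for these values, so their counts are not evidence about the group. Both comparisons share the 1 control library.

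**Figure D2:**
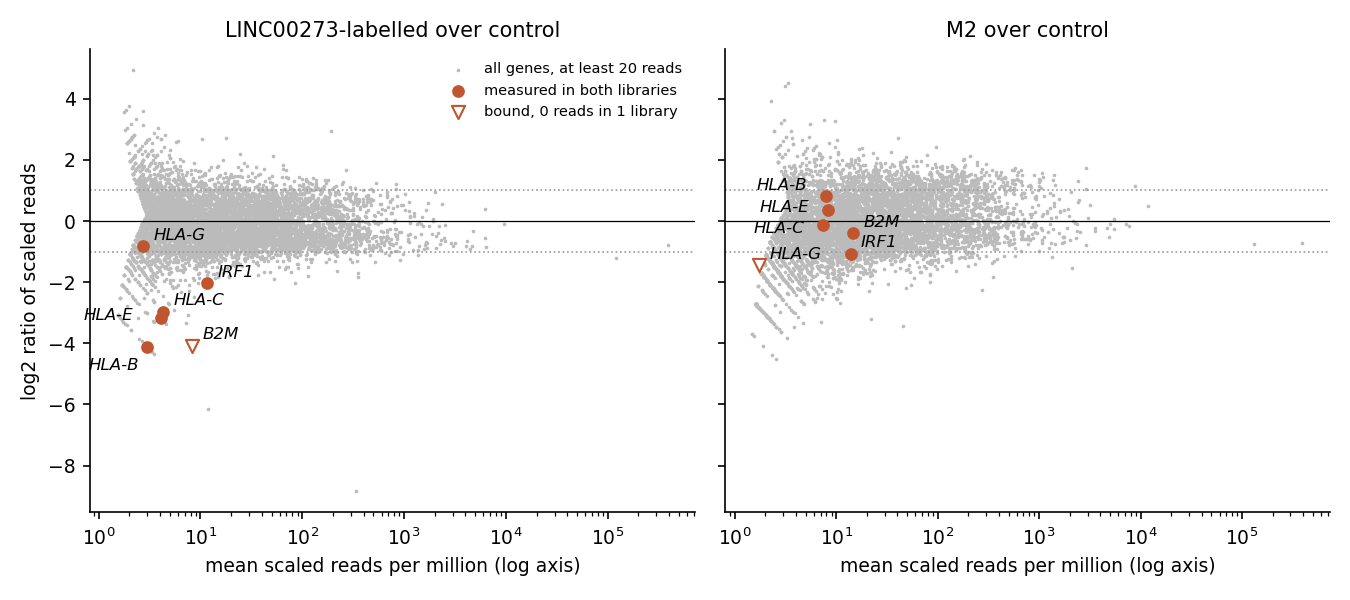
Log2 ratio of scaled reads against mean CPM (log axis) for genes with at least 20 reads, for the library labelled LINC00273 overexpression over control and for M2 over control, with the 6 genes in colour and dotted lines at 2-fold. HLA-B at -4.13 and the bound of B2M lie near the lower edge of the cloud on the left, and with M2 HLA-B lies at 0.82.

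The M2 library and the library labelled LINC00273 overexpression can be set against each other without the control. All 4 of B2M, HLA-B, HLA-C and HLA-E were higher with M2. B2M was at least 12.9-fold higher against the same floor, and with counting error the interval of its log2 ratio reaches down to 3.32. The log2 ratio of M2 over the LINC00273 label was 4.94 (interval 2.36 to 10.34) for HLA-B, 2.85 (interval 1.10 to 5.31) for HLA-C and 3.53 (interval 1.53 to 5.65) for HLA-E. For IRF1 it was 0.97 (interval -0.07 to 2.06), which includes no difference. At the 20-read minimum 4 of the 5 measured genes were higher, against 4.29% of 6690 genes higher and 10.9% lower. The genes were chosen by their low values with the LINC00273 label, which also enter this ratio. Of these libraries, B2M, HLA-B, HLA-C and HLA-E reached 20 reads only with M2. Their count is therefore not evidence about the group. At 100 reads, where 1.65% of 3404 genes were higher and 1.47% were lower, none of the 6 had enough reads to be counted. Those shares are 56 and 50 genes, against 17 and 113 by total reads and 14 and 98 when centred on GC content.

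**Figure D3:**
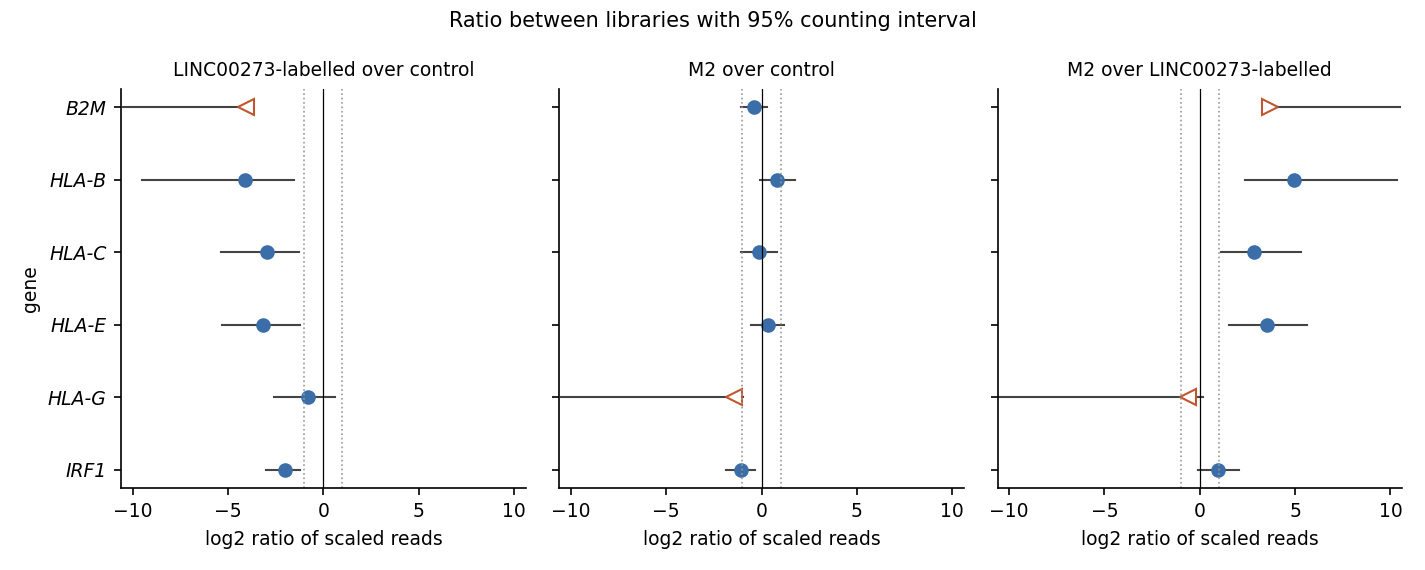
Log2 ratios of scaled reads for each of the 6 genes in the comparisons with the control and of M2 over the library labelled LINC00273 overexpression, with 95% exact intervals as bars and bounds where a library had 0 reads. With the LINC00273 label HLA-B stands at -4.13 and IRF1 at -2.04, and the M2 ratios of B2M, HLA-B, HLA-C and HLA-E have intervals that cross 0.

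HLA-F, another nonclassical heavy chain, had 4 reads with the LINC00273 label, 10 with M2 and 6 in the control. The class I pseudogene HLA-H had 6, 7 and 19 reads, and HLA-L had 3, 0 and 14.

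A sum over genes does not depend on how reads were split among the summed genes. It still depends on reads shared with genes outside the sum and on reads left uncounted because they map to several genes. The sums given here do not hold every class I gene. A sum of 14 class I heavy chain genes and pseudogenes had 45 reads with the LINC00273 label, 142 with M2 and 216 in the control. Their summed log2 ratio was -2.03 (interval -2.72 to -1.34) with the LINC00273 label, a 4.09-fold lower level. With M2 it was 0.02 (interval -0.44 to 0.46), which includes no difference. HLA-B and HLA-C together had 8, 80 and 96 reads in the same order, and a log2 ratio of -3.35 (interval -5.29 to -1.90) with the LINC00273 label and 0.36 (interval -0.28 to 0.99) with M2. Both sums were low with the LINC00273 label, and M2 and control overlapped.

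Class I genes are abundant in leukocytes, and hemoglobin genes had many reads with M2 and in the control. Markers of leukocytes and of red cells were therefore looked up in the same libraries. All 9 red cell markers together had 40 reads with the LINC00273 label, 6586 with M2 and 5929 in the control, a log2 ratio of -6.98 (interval -7.69 to -6.35) with the LINC00273 label and 0.77 (interval 0.70 to 0.84) with M2. HBA2 and AHSP were at 0 with the LINC00273 label. ALAS2, the heme synthesis enzyme of red cell precursors, had 5, 20 and 60 reads in the same order. The 17 leukocyte markers together had 75, 228 and 215 reads in the same order, a log2 ratio of -1.29 (interval -1.85 to -0.73) with the LINC00273 label and 0.71 (interval 0.31 to 1.09) with M2. Summed leukocyte levels were 12.2, 48.7 and 29.8 CPM. Both marker sums were thus lowest with the LINC00273 label, like B2M, HLA-B, HLA-C and HLA-E.

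Among leukocyte markers, CD14 of monocytes, MS4A1 of B cells and the NK cell genes GNLY and NKG7 were at 0 with the LINC00273 label, CD3E of T cells and GNLY were at 0 with M2, and none was at 0 in the control. The pan-leukocyte gene PTPRC, which encodes CD45, had 10 reads with the LINC00273 label, 46 with M2 and 38 in the control. S100A9 of neutrophils and monocytes had 2, 40 and 46 reads, LYZ of myeloid cells had 2, 31 and 11, and LCP1 of leukocytes had 10, 32 and 30. PTPRC, S100A9, LYZ and LCP1, the 4 most-read of the list, were lowest with the LINC00273 label, like B2M, HLA-B, HLA-C and HLA-E. They carried most of the lower sum of the list with that label. No other marker of the list had 20 reads in any library, so the rest cannot be said to move with the class I genes. The part of these markers in the result was not tested.

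**Figure D4:**
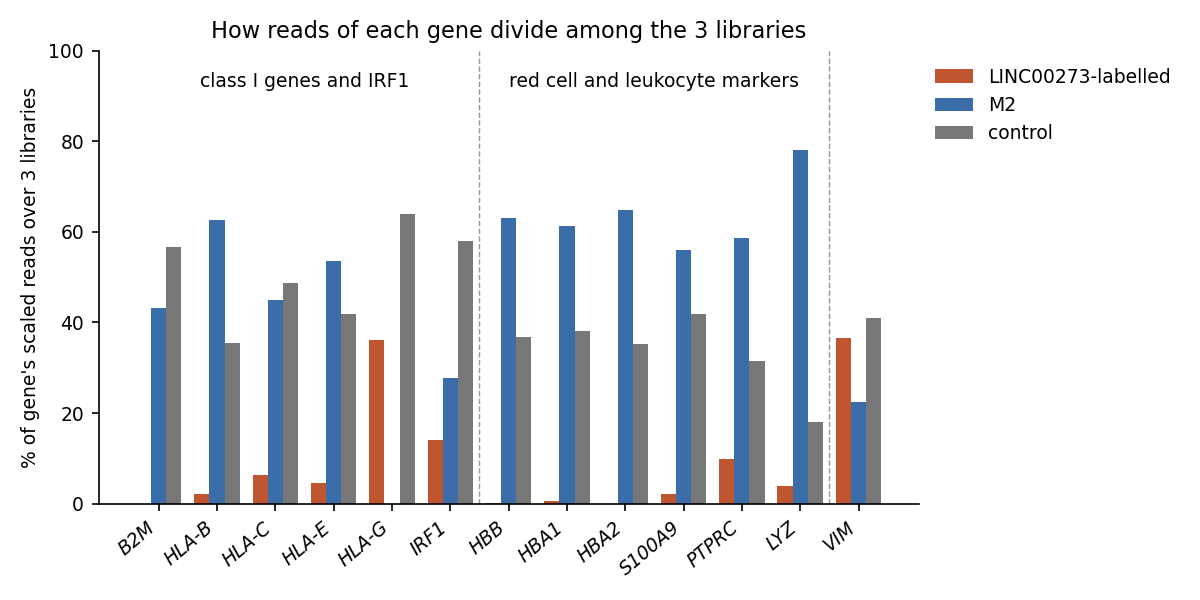
Share of each gene's scaled reads in the library labelled LINC00273 overexpression, the M2 library and the control, for the 6 genes, blood markers and VIM. B2M has 0% of its scaled reads with the LINC00273 label, 43.3% with M2 and 56.7% in the control, and HBB has 0.0800%, 63.1% and 36.8%.

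The distribution of each gene's scaled reads over the libraries sets the 6 genes side by side. B2M had 0% with the LINC00273 label, 43.3% with M2 and 56.7% in the control. HLA-B had 2.03%, 62.5% and 35.5%, HLA-C had 6.25%, 45.0% and 48.8%, and HLA-E had 4.64%, 53.5% and 41.9% in the same order. HLA-G had 36.0%, 0% and 64.0%, and IRF1 had 14.1%, 27.8% and 58.1%. B2M, HLA-C, HLA-G and IRF1 had their largest share in the control, and HLA-B and HLA-E had theirs with M2. Over 3 libraries such shares are a description.

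For B2M, HLA-E and IRF1, which had at least 100 reads summed over the libraries, the genes with the most like distribution were looked up among 5203 other genes by Hellinger distance, where 0 means identical shares. Nearest to B2M were the hemoglobin genes HBA1 at 0.140, HBB at 0.143 and HBA2 at 0.154. B2M had no reads with the LINC00273 label, so genes with few reads there were bound to come nearest. These matches were looser than those of HLA-E and IRF1. HBB had 63.1% of its scaled reads with M2, where B2M had 43.3%. Nearest to HLA-E were EGFR, a growth factor receptor, at 0.0443, SLC25A37, the mitochondrial iron importer mitoferrin-1, at 0.0696, and RMRP, the RNA of an RNA-processing enzyme, at 0.0746. Nearest to IRF1 were UBAC2 at 0.0116, the pseudogene RP11-467J12.1 at 0.0130 and the adaptor NCK2 at 0.0176. EGFR, whose protein is typical of this line, had 8, 61 and 95 reads with the LINC00273 label, with M2 and in the control, and a log2 ratio of -3.34 (interval -5.29 to -1.90) with the LINC00273 label.

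Peptides for class I molecules are cut by the immunoproteasome and its activator. Of the 5 genes listed, 4 had at least 20 reads, and all 4 were lower with the LINC00273 label, with a median log2 ratio of -1.43, and 2 of 4 were lower with M2, with a median of -1.04. Over all genes with at least 20 reads, 9.69% were lower and 8.34% higher with the LINC00273 label, at a median of -0.14, and 16.5% were lower and 13.9% higher with M2, at a median of -0.16. The counts in the lists below stand against the same shares. All lists were chosen with earlier results of these data known, so their counts are descriptions and not evidence about a pathway. PSMB10 reached 20 reads only in the control. PSME2, a subunit of the PA28 activator, had 1066 reads with the LINC00273 label, 1325 with M2 and 3150 in the control, log2 ratios of -1.33 (interval -1.48 to -1.19) and -0.63. PSME1, the other subunit, had 435, 497 and 1201 reads, log2 ratios of -1.23 (interval -1.46 to -1.01) and -0.65. The catalytic subunit PSMB8 had 27, 18 and 92 reads, log2 ratios of -1.54 and -1.73. PSMB10, another catalytic subunit, had 2, 0 and 25 reads, and PSMB9 had 8, 2 and 10. PSME1 and PSME2 had more reads than any heavy chain, but PSME2 has processed pseudogene copies with which reads may be shared.

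Transport and loading of peptides is done by TAP, tapasin and chaperones of the endoplasmic reticulum. None of the 4 genes with at least 20 reads was lower or higher with the LINC00273 label, and with M2 there was 1 higher and 1 lower. CANX, the membrane chaperone calnexin of new heavy chains, had 2460 reads with the LINC00273 label, 2385 with M2 and 1535 in the control, log2 ratios of 0.91 and 1.26 (interval 1.12 to 1.39). CALR, the lumenal chaperone calreticulin, had 124, 68 and 213 reads, log2 ratios of -0.55 and -1.03 (interval -1.63 to -0.46). The thiol oxidoreductase PDIA3 had 292, 135 and 364 reads, log2 ratios of -0.09 and -0.81. The aminopeptidase gene ERAP1, which trims peptides, had 14, 12 and 24 reads. The peptide transporter genes were near the floor: TAP1 had 12, 8 and 18 reads and TAP2 had 0, 0 and 4.

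Regulators of class I promoters were not past 2-fold in either comparison with the control. Of the list, 7 genes with the LINC00273 label and 6 with M2 had at least 20 reads, and their median log2 ratios were 0.60 and 0.12. CREB1, which binds the X2 box, had 1145 reads with the LINC00273 label, 1140 with M2 and 885 in the control, log2 ratios of 0.60 and 0.99. NFYC, a subunit of the factor that binds CCAAT, had 478, 410 and 890 reads, log2 ratios of -0.67 and -0.50. Its partners NFYB and NFYA had 181, 169 and 140 reads and 87, 60 and 60 reads in the same order, with log2 ratios of 0.60 and 0.89 for NFYB and of 0.77 and 0.62 for NFYA. NLRC5, the coactivator of class I genes, had 27, 10 and 27 reads.

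Of the other interferon regulatory factors and their cofactors, 4 had at least 20 reads. With the LINC00273 label 2 of them were lower and none was higher, with a median log2 ratio of -0.68, and with M2 3 were lower and none was higher, with a median of -1.16. The shares of all genes lower at that minimum were 9.69% and 16.5%, and the medians were -0.14 and -0.16. IRF2, which competes with IRF1 for the same sites, had 119 reads with the LINC00273 label, 97 with M2 and 316 in the control, log2 ratios of -1.18 (interval -1.62 to -0.73) and -1.08 (interval -1.56 to -0.60). IRF2BPL had 225, 65 and 254 reads, log2 ratios of 0.06 and -1.34 (interval -1.92 to -0.76). IRF2BP2 and IRF2BP1, corepressors of IRF2, had 175, 115 and 236 reads and 22, 16 and 58 reads, with log2 ratios of -0.20 and -0.42 for IRF2BP2 and of -1.17 and -1.24 for IRF2BP1. IRF1 and IRF2 were both lower than the control in both libraries.

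In the interferon receptor and JAK-STAT list, 1 gene was higher and 2 were lower of 7 measured with the LINC00273 label, and none was higher and 2 were lower of 6 with M2. SOCS1, a feedback inhibitor of interferon signalling, had 150 reads with the LINC00273 label, 120 with M2 and 438 in the control, log2 ratios of -1.31 (interval -1.71 to -0.93) and -1.25 (interval -1.68 to -0.83). SOCS3, an inhibitor of cytokine signalling, had 37, 24 and 96 reads, log2 ratios of -1.14 and -1.38. The kinases stayed within 2-fold: JAK1 had 737, 634 and 1231 reads, log2 ratios of -0.51 and -0.34, and JAK2 had 302, 244 and 251 reads, log2 ratios of 0.50 and 0.58. PTPN2, a phosphatase of JAK and STAT proteins, had 360, 391 and 340 reads, log2 ratios of 0.31 and 0.82. The receptor gene IFNGR1 had 2, 0 and 9 reads.

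The list of NF-kB factors, which bind kB sites, and of their targets had 6 genes with at least 20 reads. With the LINC00273 label 1 was lower, the target BIRC3, and none was higher, with a median log2 ratio of -0.13, and with M2 2 were lower and 1 was higher, with a median of -0.84. BIRC3, an inhibitor of apoptosis, had 0 reads with the LINC00273 label, 6 with M2 and 20 in the control. The shares of all genes lower were again 9.69% and 16.5%. NFKBIA, the inhibitor that NF-kB itself induces, had 452 reads with the LINC00273 label, 254 with M2 and 779 in the control, and log2 ratios of -0.55 and -0.995, the second just inside 2-fold. NFKB2, a subunit gene that NF-kB induces, had 214, 105 and 260 reads, log2 ratios of -0.05 and -0.69. REL, another subunit, had 52, 62 and 38 reads, log2 ratios of 0.68 and 1.33. NFKB1, another subunit, had 37, 7 and 50 reads, log2 ratios of -0.20 and -2.22.

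The authors' deposited table of genes they called for the LINC00273 label lists 479 genes as up and 330 as down, and 4 of the 6 genes are among the down ones. In the authors' deposited table HLA-B has a fold of 0.0605, HLA-E of 0.117, HLA-C of 0.135 and IRF1 of 0.257. By that fold HLA-B is the fifth lowest of the 330, at a log2 ratio of -4.05 in the authors' deposited table, and IRF1 is at rank 311. No gene with 0 in either library is in the authors' deposited table, so B2M, at 0 reads with the LINC00273 label, is outside it. The authors' deposited table for M2 lists 294 genes as up and 376 as down and holds none of the 6 genes, and its down genes start at a log2 ratio of -2.09.

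In the authors' deposited table of terms for the genes lower with the LINC00273 label, the MHC class I protein complex has a fold enrichment of 25.65 and a false discovery rate of 0.0446. The interferon-gamma-mediated signaling pathway has a fold enrichment of 8.55 and a false discovery rate of 0.0138 in the authors' deposited table. Neutrophil degranulation, a term of genes expressed by leukocytes, has a fold enrichment of 3.35 and a false discovery rate of 0.0385 in the authors' deposited table. These terms come from lists made with 1 library per group. The list of lower genes holds HLA-B, HLA-C, HLA-E and IRF1, which were chosen here for those same low values. The terms are therefore not separate support for them.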

How the data were processed

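Total RNA was depleted of ribosomal RNA and sequenced as 150-bp paired reads, per the labels' protocols and the series design. The submitters' processing notes name hg19, featureCounts 1.5.2, STAR, Bowtie2 2.2.4, Trimmomatic and DESeq2. What each did, and with which settings, is not given in the sources used here. The authors deposited a scaled signal per gene in all-gene tables, fold and log2 ratios in lists of called genes, and p-values with fold enrichments in term tables.

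All deposited signal values (100% within a tolerance of 0.01) were whole multiples of 1 step per library, which gave reads. Below 20 reads, 80.5% to 85.8% of values were even, so 2 reads were taken as 1 fragment. TMM sizes from edgeR 4.0.16 in R 4.3.3 set the scale. Ratios have 95% exact Clopper-Pearson intervals of the fragment split and levels have exact Poisson intervals. A library at 0 was set to 3 fragments for a bound. Each group is a single library and leaves no degrees of freedom, so a size rule (100 reads and 2-fold) stood in for a count test. The steps were tested on simulated data with counting error only. The changed genes there were set to have more reads than any gene described here, so that test does not cover such sparse reads.

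The 6 genes and the 14 gene lists were chosen with earlier results of these data known. The text names the 6 genes, LINC00273, from each list the 4 most-read genes and any list gene past the size rule, and the 3 nearest profiles of each gene with enough reads. Genes named beyond that rule, namely AHSP, BIRC3, CD14, CD3E, CDH1, EPCAM, GNLY, IFNGR1, MS4A1, MX1, NKG7, NLRC5, PSMB9, SOCS3, TAP1, TAP2, USP18, RPL3P2 and C5orf56, were chosen after their values were seen. A few others covered by it are left out of the text and not reported here. Alternatives were other scalings (DESeq2 1.42.0 size factors, the deposited scaling, total reads, TMM without RN7SL1 and RN7SK), GC centring, other read and fold minimums, protein-coding genes only and 0.5 added reads.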

Additional observations from a re-analysis of the deposited data

How the results depend on the processing

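No paired analysis was possible because each group has 1 library, so the groups share fewer than 2 replicate numbers. Over 104 member ratios under alternatives, B2M left its counting interval with M2 after GC centring, at -1.18, and with the LINC00273 label by total reads, at -3.56. HLA-C with M2, at -0.12, turned to 0.14 by total reads and to 0.62 after GC centring; no ratio past the 100-read and 2-fold rule changed direction. With the LINC00273 label, genes of like GC content had median log2 ratios of -0.64 to -0.57 for the heavy chains and IRF1, and of 0.40 for B2M. After GC centring the ratios with that label were -3.52 for HLA-B, -2.33 for HLA-C, -2.61 for HLA-E, -0.22 for HLA-G and -1.45 for IRF1. The count of the 6 genes lower with the LINC00273 label was 2, and 5 with a minimum of 20 reads or with no minimum. With M2 it was 1, and 0 under the deposited scaling, total reads or a 4-fold threshold, and 2 with a minimum of 20 reads or none; under GC centring the 1 gene was B2M, not IRF1. For M2 over the LINC00273 label the count past 2-fold was 0, and 4, all higher with M2, with a minimum of 20 reads or none. Scaling by total reads moved the all-gene median log2 ratio to 0.31 with the LINC00273 label and to 0.24 with M2, and put the share of higher genes among those past the rule at 95.7%, against 43.9% with TMM, for the LINC00273 label and at 85.4%, against 66.2%, for M2. The causes were not tested. With 0 to 135 reads per gene and library, depth limits the 6 genes' values.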

Other observations

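Other groups of immune genes had few reads, and their values are given without explanation. The 38 interferon-stimulated genes, targets of interferon signalling, together had 199 reads with the LINC00273 label, 133 with M2 and 243 in the control. Their summed log2 ratio was -0.06 (interval -0.45 to 0.34) with the LINC00273 label and -0.25 (interval -0.70 to 0.20) with M2. Both intervals include no difference, but single genes of the list went both ways. MX1 had 0 reads with the LINC00273 label, 8 with M2 and 14 in the control, and USP18 had 11, 0 and 2. Of the list, 12 genes were at 0 with the LINC00273 label, 14 with M2 and 5 in the control, which had the most reads. The sum therefore does not stand for each gene. Its difference from the summed class I genes, at -2.03 with the LINC00273 label, was not tested. Among these genes WARS, a tRNA synthetase induced by interferon-gamma, had 32, 12 and 34 reads in the same order, the RNA sensor IFIH1 had 28, 9 and 13, OAS3 had 20, 6 and 17 and SAMHD1, which degrades nucleotides, had 8, 22 and 17.

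The 13 MHC class II genes together had 53 reads with the LINC00273 label, 43 with M2 and 81 in the control, and no gene had 20 reads in a library. HLA-DRA, the class II alpha chain, had 2, 10 and 16 reads. CIITA, the class II coactivator, had 2, 9 and 17, the invariant chain CD74 had 4, 8 and 14, and HLA-DPB1 had 9, 4 and 6. The 16 class I-like chains, such as MICA and CD1 molecules, together had 36, 21 and 51 reads, among them MR1 with 8, 5 and 8, HFE with 4, 1 and 12, MICA with 3, 4 and 9 and AZGP1 with 6, 2 and 2. The 8 measured ligands read by T and NK cells together had 53, 22 and 32 reads, a summed log2 ratio of 0.96 (interval 0.04 to 1.98) with the LINC00273 label and 0.08 (interval -1.17 to 1.28) with M2. CD47, which tells phagocytes not to engulf a cell, had 22, 4 and 11 reads, the death receptor FAS had 8, 6 and 9, CD276 had 8, 2 and 4 and PVRL2 had 6, 2 and 4.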
